A study of Mus musculus with 2 samples.

Results

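Transport genes known from brain pericytes and from the fibroblasts of the brain coverings were followed through single cells of brain and lung. The genes were Atp13a5, Slc6a20a, Slc6a13, Slc6a12, Ggt1 and Abcc9, 6 of the 25814 genes listed in the 2 count tables. They were picked by name for their levels in brain mural and fibroblast cells of these same libraries, so those levels are given as a description and carry no test. The study sequenced these cells to characterise neural stem cells outside the brain, for which the transgene was meant to enrich. Transport genes of pericytes and fibroblasts were not its main subject.

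Single cells were prepared from the brain and from the lung of adult mice about 6 weeks old that carry a Nestin-GFP transgene, in which regulatory sequence of Nestin, an intermediate filament gene, drives green fluorescent protein. Cells of both organs were freed with trypsin, sorted for GFP and run as 1 10x library per organ, so that each group was a single library and organ, animals and library cannot be told apart. The labels give the strain as C57BL/6, whereas the methods speak of CD1 or CD1/C3H mixtures. Live single cells were gated by light scatter and then sorted for GFP, a sort that holds neural stem cells and their progeny in brain as well as vessel-associated cells in both organs.

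Pericytes are contractile cells embedded in the basement membrane of capillaries, and in brain they help to keep the blood-brain barrier tight. The leptomeninges and the perivascular spaces hold fibroblasts that exchange solutes with the cerebrospinal fluid. Transporters in both cell types move amino acids, GABA, organic anions and vitamins across the borders of the brain. The SLC6 carriers couple substrate uptake to sodium and chloride, ABCC proteins are ATP-binding cassette proteins, and P5-type ATPases are transport ATPases of internal membranes.

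After limits on the number of genes and the share of mitochondrial reads per cell, 4151 brain cells with a median of 4209 UMIs and 5608 lung cells with a median of 5585 UMIs remained. A UMI is a tag that marks 1 captured RNA molecule. The cells were clustered without the 6 genes, and clusters were named from marker genes as 21 classes, 12 in brain and 9 in lung, while 185 brain cells and 779 lung cells stayed unnamed. The brain mural-like class held 169 cells and 467408 UMIs with a median of 2559 per cell, and the brain fibroblast-like class held 66 cells and 391192 UMIs with a median of 5340.5. In lung, the reference classes were 1890 pericyte-like cells (median of 5222.5 UMIs), 696 matrix fibroblast-like cells (median of 8810) and 1003 myofibroblast-like cells. The 2 libraries shared 15 cell barcodes, 0.323% of the brain and 0.251% of the lung barcodes.

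Marker gene levels of the classes follow. Pdgfrb, Rgs5, Vtn, Higd1b, Col1a2, Dcn and Lum were among the markers that gave the names, so their presence is no separate check. Pdgfrb, the receptor that pericytes need for recruitment to vessels, had a UMI in 99.4% of mural-like cells, Rgs5 in 98.2%, Vtn in 98.8% and Higd1b in 93.5%. The 8 pericyte markers summed to 38294 counts per 1000000 UMIs of the class (CPM), with all 8 in at least 20% of cells. The 9 smooth muscle markers summed to 1906 CPM, with 2 in at least 20% of cells, and most of this was Myl9, a myosin light chain gene, at 708 UMIs in 89.9% of cells, and Des at 91 UMIs in 37.3%. Tpm2 had 42 UMIs, Myh11 18, Acta2 15, Tagln 10, Lmod1 7 and Cnn1 and Pln 0. Lung pericyte-like cells were only partly alike. Pdgfrb had a UMI in 99.2% and Higd1b in 98.8% of them, but Rgs5 in 54.7% and Vtn in 53.5%. Des was in 91.6%, Tagln in 67.9%, Acta2 in 58.7% and Myh11 in 43.8%, against 37.3%, 1.78%, 1.18% and 5.92% of mural-like cells. These shares are not at equal depth, and the part of such differences in the ratios below was not tested. In the fibroblast-like class Col1a2 had a UMI in 100% of cells, Dcn in 92.4% and Lum in 63.6%, and Rgs5, Higd1b and Kcnj8 were at 0 UMIs. No marker list used here places these cells in the meninges or around vessels, and the 8 arachnoid barrier markers together reached 406 CPM in them, so they are called fibroblast-like. Markers of other cell types were present in both brain classes. In fibroblast-like cells the mural list summed to 6743 CPM, against 41018 CPM in mural-like cells, with 4 of its 13 markers in at least 20% of cells, and Vtn was found in 92.4% and Pdgfrb in 75.8% of them. The quiescent NSC or astrocyte list summed to 2071 CPM in fibroblast-like cells and 449 CPM in mural-like cells, and the activated NSC list to 680 and 1911 CPM. The fibroblast list summed to 1138 CPM in mural-like cells, against 28579 CPM in fibroblast-like cells. The 12 endothelial markers summed to 1080 CPM in mural-like and 588 CPM in fibroblast-like cells, against 25093 CPM in endothelial-like cells, and the neuroblast list summed to 1525 CPM in mural-like and 240 CPM in fibroblast-like cells. The part of this RNA in the values below was not tested. When the 36 mural-like and 6 fibroblast-like cells with UMIs of at least 3 endothelial markers were left out, Atp13a5 was at least 8352-fold higher in mural-like than in lung pericyte-like cells, against at least 8234-fold with them. Endothelial-like cells had 15 UMIs of Atp13a5 and lung had 0, so this ratio could hardly move and does not measure endothelial RNA.

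Levels below are CPM of the summed UMIs of a class, with exact 95% Poisson intervals that cover counting error only. Ratios of 2 classes carry exact conditional binomial intervals of the same kind. A class at 0 UMIs was set to 3 counts, and the ratio is then given as "at least" that value. This is a convention, since the lower end of the 95% interval lies below it. Limits for 0 UMIs also stand for 3 counts, which is below the upper end of the exact interval. No p-value is given, since cells of 1 library are not replicates. The UMIs come from the 3' end of each RNA, and values are compared between cells for the same gene and not between genes.

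All 6 genes were at least 4-fold higher in brain mural-like than in lung pericyte-like cells, a step that 8.05% of the 9639 genes with at least 10 CPM in either class and 10 UMIs over both (the genes tested) also passed. For Abcc9 this did not hold against 1 lung pericyte-like cluster, cluster 12, where the ratio was 1.61. Among brain fibroblast-like against lung matrix fibroblast-like cells, 4 of the 5 genes with enough UMIs passed the same step, beside 7.93% of all genes, and Abcc9 went the other way, beside 5.38% of genes that were at least 4-fold lower. Against the sum of the 10 other named brain classes, all 6 genes were higher in mural-like cells (7.67% of all genes) and 5 were higher in fibroblast-like cells (7.83% of all genes). Within brain, Atp13a5, Ggt1 and Abcc9 were at least 4-fold higher in mural-like than in fibroblast-like cells (7.48% of all genes), and Slc6a13 was at least 4-fold lower (6.38% of all genes). Because the genes were picked for these contrasts, nothing is read from these counts.

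**Figure D1:**
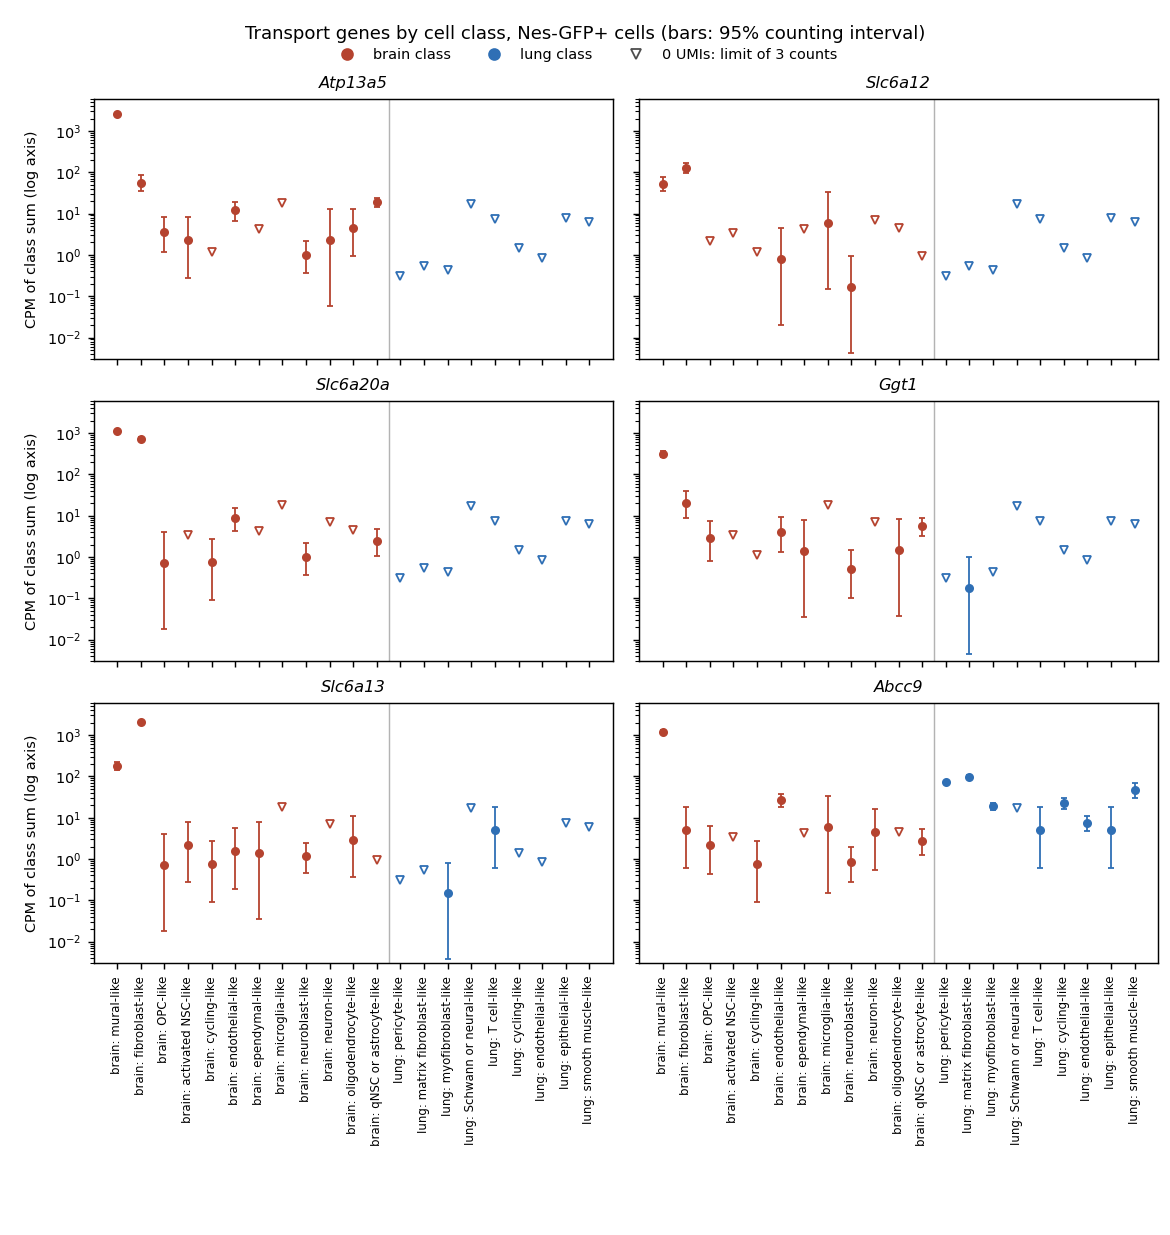
CPM of each of the 6 genes on a log axis in every named class of the brain and lung libraries, with 95% Poisson intervals and open triangles at the limit of 3 counts where a class had 0 UMIs. The highest value of each gene is in the brain mural-like or fibroblast-like class, and Abcc9 is the only one with more than 2 UMIs in a lung class.

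Atp13a5, a P5-type ATPase of little-known substrate, was far higher in mural-like cells than in any other class. It had 1196 UMIs in the mural-like class, 2559 CPM (2416 to 2708), and was found in 163 of 169 cells with a median of 7 and a maximum of 20 UMIs per cell. It had 22 UMIs in fibroblast-like cells, 56.2 CPM (35.2 to 85.1), in 12.1% of cells. The mural-like value was 45.5 times (29.9 to 72.9) the fibroblast-like one. The entire lung table held 0 UMIs of Atp13a5, which over the 5608 kept cells puts the limit at 0.0943 CPM and at 0.0535% of cells with a captured UMI. Such limits bound captured UMIs and not the share of cells that express a gene. The ratio to lung pericyte-like cells, with 3 counts for 0 UMIs, was therefore at least 8234, with an interval from 6686 upward. That of fibroblast-like to lung matrix fibroblast-like cells was at least 106, with an interval from 79.0 upward. Next in the order of classes were quiescent NSC or astrocyte-like cells at 19.1 CPM, below the fibroblast-like value by 2.95 times (1.72 to 4.86), and these did not differ from endothelial-like cells beyond counting error.

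Slc6a20a, a carrier of proline and related imino acids, was high in both brain classes. It had 519 UMIs in mural-like cells, 1110 CPM (1017 to 1210), in 92.3% of cells with a median of 3 UMIs, and 285 UMIs in fibroblast-like cells, 729 CPM (646 to 818), in 72.7% of cells. The mural-like level was 1.52 times (1.32 to 1.77) the fibroblast-like level, which is the smallest gap between the 2 classes among the 6 genes. Endothelial-like cells came next with 11 UMIs and 8.72 CPM, and 6 of these UMIs lay in 1 cell. The lung table held 0 UMIs, so the level was at least 3573 times that of lung pericyte-like cells and, in fibroblast-like cells, at least 1369 times that of lung matrix fibroblast-like cells. Its neighbouring paralog Slc6a20b had 68 UMIs in the brain table and 35 in the lung table, with 1 UMI and 2.14 CPM in mural-like cells, and how reads shared by both genes were counted is not given in the sources used here.

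Slc6a13, a carrier of GABA and taurine also called GAT2, was led by the fibroblast-like class. It had 794 UMIs there, 2030 CPM (1891 to 2176), in 86.4% of cells with a median of 11 and a maximum of 36 UMIs per cell. In mural-like cells it had 85 UMIs, 182 CPM (145 to 225), in 30.2% of cells, so that the fibroblast-like level was 11.2 times (8.92 to 14.1) the mural-like level. Slc6a12, the betaine and GABA carrier BGT1, had the same order at lower counts, with 51 UMIs and 130 CPM (97.1 to 171) in fibroblast-like and 25 UMIs and 53.5 CPM (34.6 to 79.0) in mural-like cells, a ratio of 2.44 (1.48 to 4.11). Every other brain class had at most 7 UMIs of Slc6a13 or 1 UMI of Slc6a12. In lung, Slc6a12 was at 0 UMIs and Slc6a13 had 4 UMIs in the entire table. Relative to lung matrix fibroblast-like cells, fibroblast-like cells held at least 3815 times more Slc6a13 and at least 245 times more Slc6a12. Relative to lung pericyte-like cells, mural-like cells held at least 585 times more Slc6a13 and at least 172 times more Slc6a12.

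Ggt1, the gamma-glutamyltransferase that cleaves extracellular glutathione, was again led by mural-like cells. It had 149 UMIs there, 319 CPM (270 to 374), in 55.0% of cells with a median of 1 UMI. Fibroblast-like cells had 8 UMIs, 20.5 CPM (8.83 to 40.3), and the mural-like level was 15.6 times (7.71 to 36.8) theirs. Quiescent NSC or astrocyte-like cells had 18 UMIs and 5.54 CPM. The lung table held 2 UMIs of Ggt1, none of them in pericyte-like cells, and the mural-like level was at least 1026 times the pericyte-like one. For fibroblast-like against lung matrix fibroblast-like cells, 8 and 1 UMIs gave a ratio of 115 (15.5 to 5117), under the minimum of 10 UMIs for a call.

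Abcc9, the SUR2 subunit of ATP-sensitive potassium channels, was the only one of the 6 genes with more than 4 UMIs in the lung table, where it had 1893. In mural-like cells it had 559 UMIs, 1196 CPM (1099 to 1299), in 88.2% of cells with a median of 3 UMIs. Fibroblast-like cells had 2 UMIs, 5.11 CPM (0.619 to 18.5), and the mural-like level was 234 times (64.5 to 1936) theirs. In lung it reached 97.4 CPM in matrix fibroblast-like, 71.7 CPM in pericyte-like, 46.9 CPM in smooth muscle-like and 18.7 CPM in myofibroblast-like cells. The mural-like level was 16.7 times (14.9 to 18.7) that of lung pericyte-like cells, of whose 692 UMIs 389 lay in the 111 cells of cluster 12, whereas the fibroblast-like level was 19.0 times (5.25 to 158) below that of lung matrix fibroblast-like cells. The ratio in fibroblasts rested on 2 UMIs. It moved from 0.0525 to 0.134 without the upper limit of genes per cell and to 0.0317 without cells holding endothelial markers. Against lung myofibroblast-like cells the fibroblast-like ratio was 0.273 (0.0327 to 1.01), which did not pass 4-fold and whose interval included 1.

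The spread between the other brain classes and the 2 classes of interest was wide for each gene except Abcc9 in fibroblast-like cells. There Abcc9 was at 5.11 against 3.22 CPM, a ratio of 1.59 (0.187 to 6.00). Mural-like cells exceeded the 10 other brain classes by 473 times (383 to 590) for Atp13a5, 689 times (471 to 1047) for Slc6a20a and 371 times (281 to 497) for Abcc9. Fibroblast-like cells exceeded them by 2074 times (1287 to 3578) for Slc6a13, 452 times (306 to 692) for Slc6a20a and 755 times (244 to 3781) for Slc6a12. The smallest of these ratios that passed 4-fold were those of fibroblast-like cells for Atp13a5 at 10.4 (6.22 to 16.7) and Ggt1 at 11.1 (4.42 to 24.6). The Slc6a13 ratios became 354 in mural-like and 3890 in fibroblast-like cells under a mitochondrial limit of 10%, and the Slc6a12 ratios became 178 and 435 when each cell was weighted equally.

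Endothelial cells lie against pericytes along the capillary wall and share a basement membrane with them. Endothelial-like cells had a median of 3798 UMIs, more than the mural-like median of 2559. Their level was lower than the mural-like one by 215 times for Atp13a5, 127 times for Slc6a20a and 44.4 times for Abcc9. Only 26 of 329 endothelial-like cells had a UMI of any of the 6 genes, and 2 of them had 4 of the genes. The highest counts in 1 endothelial-like cell were 7 UMIs of Atp13a5 and 10 of Abcc9.

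To compare shares of cells at equal depth, each cell was thinned to 1000 UMIs, which left out 5 mural-like, 0 fibroblast-like and 11 endothelial-like cells. Atp13a5 was then found in 89.6% of mural-like, 4.55% of fibroblast-like and 1.57% of endothelial-like cells, against 96.4%, 12.1% and 2.43% before thinning. Slc6a20a was found in 68.9% of mural-like and 42.4% of fibroblast-like cells and in 0 of 318 endothelial-like cells, a limit of 0.943%. For Slc6a13 the thinned shares were 15.9% in mural-like and 75.8% in fibroblast-like cells, and for Slc6a12 they were 3.66% (1.35 to 7.79) and 9.09% (3.41 to 18.7). Slc6a13 kept the order of its CPM at equal depth, whereas the intervals of Slc6a12 overlapped. Ggt1 was found in 28.0% and 3.03%. Abcc9 was found in 64.6% of mural-like cells and in 0 of 66 fibroblast-like cells, a limit of 4.55%, while 5.93% of lung pericyte-like and 7.83% of lung matrix fibroblast-like cells had it. In neuroblast-like cells, taken as a class that should lack Atp13a5 and with a median of 3983 UMIs, the share with an Atp13a5 UMI was 0.070% after thinning and 0.398% before.

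**Figure D2:**
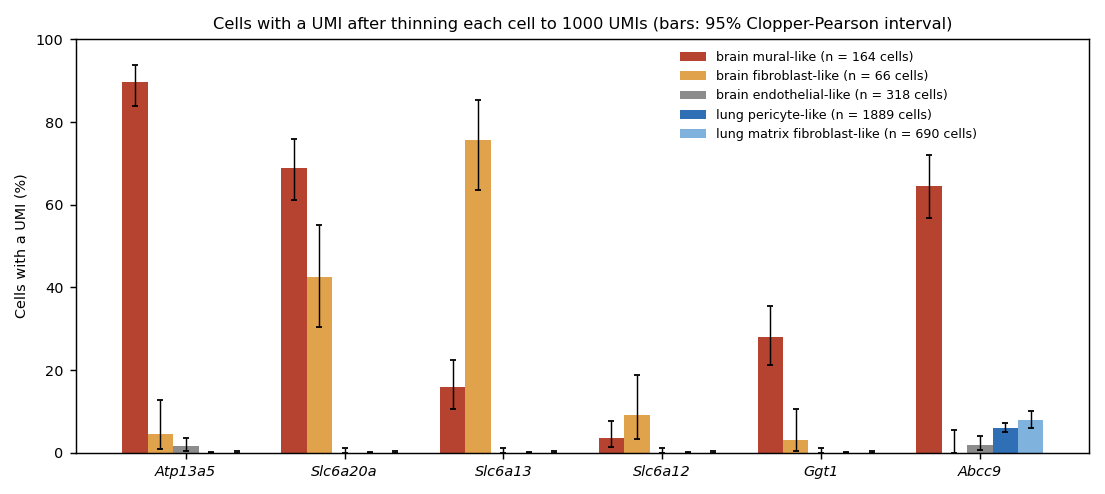
Share of cells in percent with at least 1 UMI of each gene after thinning to 1000 UMIs per cell, in brain mural-like, fibroblast-like and endothelial-like and lung pericyte-like and matrix fibroblast-like cells, with exact 95% binomial intervals. Mural-like cells lead for Atp13a5 at 89.6% and Abcc9 at 64.6%, and fibroblast-like cells lead for Slc6a13 at 75.8%.

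Within single mural-like cells the genes were found together. At full depth, 74 of 169 cells (43.8%) held UMIs of 4 of the 6 genes and 8 cells (4.73%) held all 6, whereas 2 cells held none. All 51 cells with Slc6a13 also held Atp13a5 and Slc6a20a, and 148 of the 149 cells with Abcc9 held Atp13a5. Atp13a5 was in 163 of 169 cells, so that nearly every cell with another gene held it too. In fibroblast-like cells Slc6a13 took that place, being in 57 of 66 cells. All 20 fibroblast-like cells with Slc6a12 held Slc6a13, and 47 of the 48 with Slc6a20a held it too. Atp13a5, Ggt1 and Abcc9 were in 8, 5 and 2 of these cells, too few to read their overlap. After thinning, 62 of 164 mural-like cells (37.8%) held 3 of the genes and 26 of 66 fibroblast-like cells (39.4%) held 2, whereas 96.5% of endothelial-like, 94.1% of lung pericyte-like and 92.2% of lung matrix fibroblast-like cells held none.

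**Figure D3:**
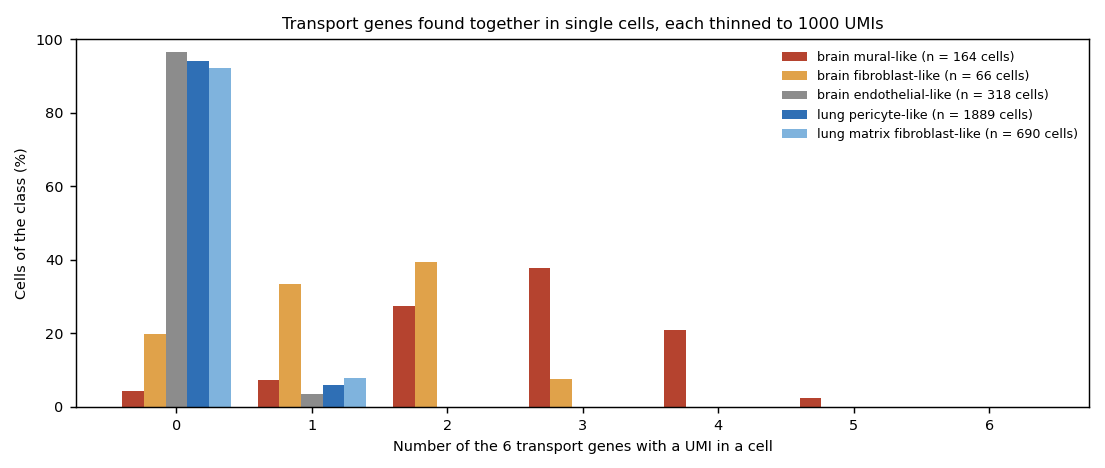
Share of cells in percent by how many of the 6 genes had a UMI after thinning to 1000 UMIs per cell, for the brain and lung classes. Mural-like cells peak at 3 genes (37.8%) and fibroblast-like cells at 2 (39.4%), while over 90% of the lung classes and of endothelial-like cells hold 0.

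Both brain classes were split further, again without the 6 genes. The mural-like class gave sub-cluster 0 with 108 cells and sub-cluster 1 with 61 cells, in which the smooth muscle list summed to 2021 and 1582 CPM and 14 of the 15 Acta2 UMIs of the class lay in 1 cell. Atp13a5 was at 2356 CPM in sub-cluster 0 and 3132 CPM in sub-cluster 1, a ratio of 1.33 (1.17 to 1.5). Slc6a20a was 1.47 times (1.22 to 1.76) and Abcc9 1.45 times (1.21 to 1.73) higher in sub-cluster 1. The channel partner of Abcc9 went the other way, with Kcnj8 at 1801 CPM in sub-cluster 0 and 1418 CPM in sub-cluster 1. For Slc6a13, Slc6a12 and Ggt1 the interval of the ratio included 1. Sub-cluster 0 was led by Stmn2, Tubb3 and other neuroblast genes, and sub-cluster 1 by Ptgds, Acta2 and Myh11, with Myh11 9.91 times (3.11 to 41.4) higher there on 14 UMIs in 6 cells. Both sets of genes moved with these differences, and their part was not tested.

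The fibroblast-like class split into 34 cells led by Ranbp3l, Ptgds and Slc13a3 (sub-cluster 0) and 32 cells led by Mgp, Mfap4 and Tgfbi (sub-cluster 1), a split made after the data were seen. Slc6a13 was nearly even, at 2209 and 1893 CPM, with a ratio of 1.17 (1.01 to 1.34). Slc6a20a at 1093 and 451 CPM was 2.42 times (1.89 to 3.12) higher in sub-cluster 0, and Slc6a12 at 242 and 45.1 CPM was 5.37 times (2.65 to 12) higher there. Atp13a5 was uneven, with 21 of its 22 UMIs in sub-cluster 0, a ratio of 27.5 (4.43 to 1138). Ggt1 was uneven in the opposite sense, with 0 UMIs in sub-cluster 0 and 8 in sub-cluster 1, at least 2.04-fold higher there. The pericyte marker list also differed between these sub-clusters, at 7973 and 5499 CPM with Vtn at 7571 and 4859 CPM, while Higd1b and Kcnj8 were at 0 UMIs in both, and its part in the differences was not tested.

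**Figure D4:**
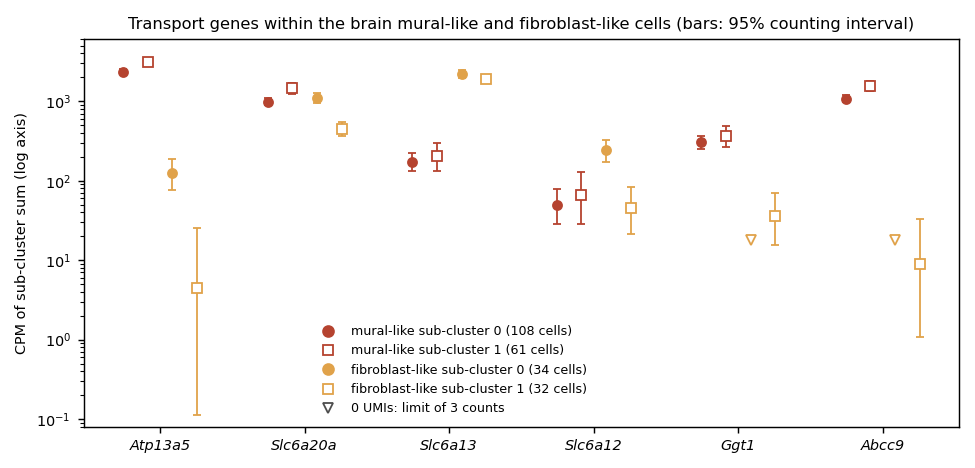
CPM on a log axis of the 6 genes in the 2 sub-clusters of brain mural-like cells and the 2 of brain fibroblast-like cells, with 95% Poisson intervals and triangles at the limit of 3 counts for 0 UMIs. The mural-like sub-clusters lie close together for all 6 genes, and the fibroblast-like ones part for Atp13a5 (124 and 4.51 CPM) and Slc6a12 (242 and 45.1 CPM).

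Abcc9 was uneven among lung pericytes. One of the 3 pericyte-like clusters, cluster 12 with 111 cells, had 389 UMIs and 742 CPM of Abcc9, and 77.5% of its cells had a UMI. The others, clusters 0 and 4, had 31.7 and 44.1 CPM, and cluster 12 was 22.3 times (19.2 to 26.1) above their joint level of 33.2 CPM. Kcnj8, which encodes the pore subunit Kir6.1 that pairs with SUR2, moved alike at 1127 against 40.2 CPM. Rgs5, a regulator of G protein signalling and a pericyte marker, stood at 14149 against 244 CPM. The other pericyte markers of cluster 12 were mixed. Pdgfrb at 1051 against 2095 CPM, Higd1b at 1184 against 3169 CPM and Cox4i2 at 589 against 3060 CPM were lower. Vtn at 641 against 198 CPM and Notch3 at 909 against 594 CPM were higher. The smooth muscle genes were higher there too, Acta2 at 2223 against 593 CPM and Myh11 at 911 against 139 CPM. Against cluster 12 alone, brain mural-like cells were 1.61 times (1.41 to 1.84) higher in Abcc9 and 1.51 times (1.36 to 1.68) higher in Kcnj8, and against the other pericyte-like cells they were 36.0 times (31.3 to 41.6) higher in Abcc9. The 16.7-fold difference in Abcc9 between the organs therefore depended on which lung pericytes were counted, and with cluster 12 alone 5 of the 6 genes remained at least 4-fold higher in brain. The other 5 genes had 0 UMIs in all 3 lung pericyte-like clusters.

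**Figure D5:**
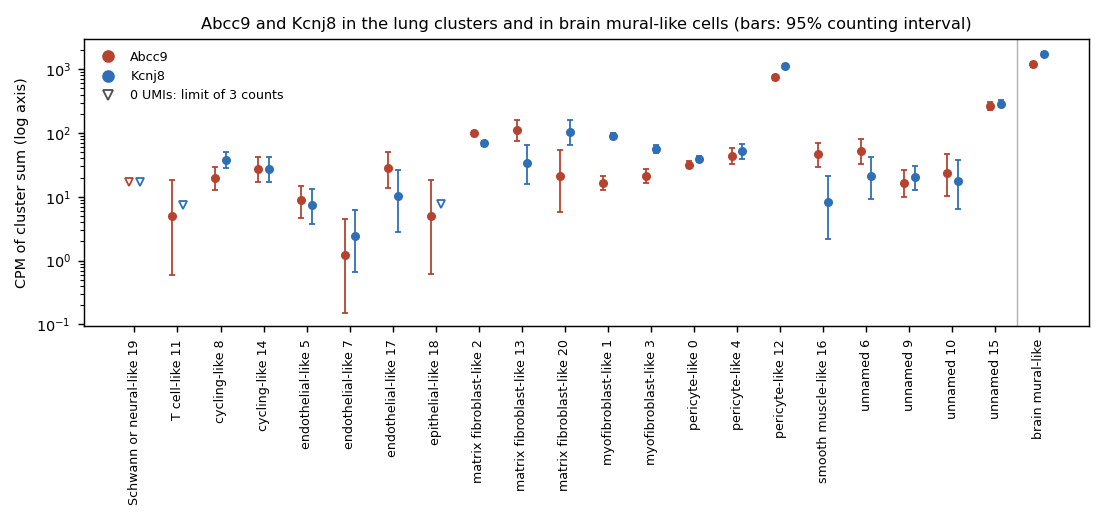
CPM on a log axis of Abcc9 and of Kcnj8 in the 21 lung clusters and in brain mural-like cells, with 95% Poisson intervals. Lung cluster 12 (742 CPM of Abcc9) is the lung cluster nearest to the brain mural-like cells (1196 CPM).

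Related transport genes were read from lists that were chosen with earlier results of these data known. The counts of each list stand beside 8.05% of all genes higher and 5.0% lower in mural-like than in lung pericyte-like cells, and 7.93% higher and 5.38% lower in fibroblast-like than in lung matrix fibroblast-like cells. Of the SLC6 family, 7 genes had enough UMIs in mural-like against lung pericyte-like cells and 5 were at least 4-fold higher, of which 3 are Slc6a20a, Slc6a13 and Slc6a12. Those 3 were picked for this contrast, and of the 4 other tested genes 2 were higher. In fibroblast-like against lung matrix fibroblast-like cells 5 of 7 tested genes of the family were higher, 3 of them again the picked genes, so that 2 of the 4 others were higher, and 1, the taurine carrier Slc6a6, was 10.5 times lower (1.86 to 419) on 1 UMI.

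Of the P5-type ATPases, only Atp13a5 passed 4-fold among the 4 tested. Atp13a1, Atp13a2 and Atp13a3 had mural-like to lung pericyte-like ratios of 1.30, 1.96 and 0.835, and Atp13a4 had 9 against 0 UMIs. In fibroblast-like cells Atp13a3 was at 2.96 times its level in lung matrix fibroblast-like cells. The ATP-sensitive potassium channel was represented by Abcc9 and Kcnj8, both higher in mural-like cells, with Kcnj8 at 17.1 times (15.6 to 18.8) the lung pericyte-like level, close to the 16.7 of Abcc9. Both were lower in fibroblast-like than in lung matrix fibroblast-like cells, where Kcnj8 had 0 against 385 UMIs, at least 8.90-fold lower. Among the other ABCC genes, Abcc10 was 4.13 times (1.41 to 10.1) higher in mural-like cells, and Abcc1 and Abcc5 had ratios of 0.961 and 0.781.

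Of the gamma-glutamyl and glutathione cycle genes, 3 of 9 tested were at least 4-fold higher in mural-like than in lung pericyte-like cells, which is 2 of 8 without the picked gene Ggt1, beside 8.05% of all genes. These were Ggt1, its neighbour Ggt5, which cleaves leukotriene C4, at 102 times (71.4 to 148), and Anpep, the aminopeptidase that trims the dipeptide left by gamma-glutamyltransferase, at 38.9 times (25.5 to 60.5). In fibroblast-like against lung matrix fibroblast-like cells Ggt5 alone of 7 tested passed, at 86.5 times (33.2 to 285), beside 7.93% of all genes, and Anpep was at 61.4 against 63.1 CPM. Ggt5 was thus higher than in lung in both brain classes, and Ggt1 and Anpep passed in mural-like cells.

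Of the meningeal transporter list, 10 of 12 tested genes were at least 4-fold higher in fibroblast-like than in lung matrix fibroblast-like cells, beside 7.93% of all genes, with a median log2 ratio of 8.0 against 0.13 over all genes and 0 UMIs set to 3 counts. Slc7a11, the cystine and glutamate exchanger, was at 1672 CPM and 2357-fold higher. The sulfate carrier Slc13a4 was at least 1062-fold higher, the organic anion carrier Slc22a6 at least 918-fold higher, and the dicarboxylate carrier Slc13a3 1052-fold higher (183 to 42122) with 1 UMI in the lung class. In mural-like against lung pericyte-like cells 3 of 6 tested genes of this list passed, beside 8.05% of all genes. Slc22a8, the organic anion carrier OAT3, was at 421 CPM and 814-fold higher (343 to 2534), and it was also at 605 CPM in brain endothelial-like cells.

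Of the other pericyte transporter list, 9 of 12 tested genes were at least 4-fold higher and 1 lower in mural-like than in lung pericyte-like cells, where 5.0% of all genes were at least 4-fold lower. Slc30a10, a manganese exporter, was at least 792-fold higher, Slc1a3, a glutamate carrier, 294-fold and Slc38a11 152-fold, whereas the potassium channel gene Kcnk3 was 12.4-fold lower (7.95 to 20.7). Slc1a3 was at 122 CPM in mural-like and 3648 CPM in quiescent NSC or astrocyte-like cells, and the part of RNA from those cells in the mural-like value was not tested. In fibroblast-like against lung matrix fibroblast-like cells 8 of 9 tested genes of the list were higher and 1, Kcnj8, was lower. Among these, Slc30a10 was at least 125-fold higher, the folate carrier Slc19a1 28.3-fold and the sodium pump subunit gene Atp1b2 22.5-fold. Over all solute carriers, 36 of 153 tested (23.5%) were at least 4-fold higher in mural-like than in lung pericyte-like cells and 42 of 167 (25.1%) in fibroblast-like than in lung matrix fibroblast-like cells, beside 8.05% and 7.93% of all genes. Without the 3 picked SLC6 genes these counts were 33 of 150 and 39 of 164.

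The genes whose pattern over the 21 classes was most like each of the 6 were ranked by Pearson's r of log2(CPM + 10) among 15283 genes. These are descriptions without a test, since the classes share 2 libraries and differ in depth. The gene most like Atp13a5 was Ggt1 (r = 0.995), followed by Pla1a (0.968), Slc5a5 (0.967), Nts (0.933) and Slc19a1 (0.927). Ggt1 was in turn most like Atp13a5, then Pla1a (0.980), Slc5a5 (0.974), Nts (0.945) and Nodal (0.941). Slc6a13 and Slc6a12 were each the other's nearest gene (0.978), with Col8a1, Foxd1 and others behind. For Slc6a13 these were Col8a1 (0.975), Ptgfr (0.95), Prg4 (0.947) and Foxd1 (0.939), and for Slc6a12 Col8a1 (0.960), Foxd1 (0.960), Slc6a20a (0.957) and Lamc3 (0.95). Slc6a20a, which was high in both classes, was most like Foxd1 (0.997), a forkhead factor gene, then Gm17200 (0.99), Lamc3 (0.984), Slc6a12 (0.957) and Slc5a5 (0.945). Abcc9 stood furthest from the others, with r between 0.29 for Slc6a13 and 0.71 for Ggt1, and genes near it were Enpep (0.944), Kcnj8 (0.941), Foxs1 (0.883) and 2810407A14Rik (0.871). Enpep encodes a peptidase that acts on angiotensins.

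All 6 genes lie beside a related or partner gene on the same strand in GRCm38. Slc6a13 (chr6:121300227-121337733, plus strand) ends 5342 bases before Slc6a12 (chr6:121343076-121365775). Abcc9 (chr6:142587862-142702315, minus strand) lies 16247 bases from Kcnj8, Atp13a5 (chr16:29231851-29378732, minus strand) 17120 bases from Atp13a4, Slc6a20a (chr9:123634770-123678885, minus strand) 2204 bases from Slc6a20b, and Ggt1 (chr10:75561604-75586200, plus strand) 3139 bases from Ggt5. Of these pairs, Slc6a13 with Slc6a12, Abcc9 with Kcnj8 and Ggt1 with Ggt5 were both at least 4-fold higher in mural-like than in lung pericyte-like cells. In that contrast Slc6a20b had 1 against 14 UMIs, a ratio of 1.48 (0.0349 to 9.70), unlike Slc6a20a. Atp13a4 had 9 against 0 UMIs. Both genes were under the minimum for a call. Atp13a4 parted from Atp13a5, with 19.3 CPM in mural-like cells and 129 and 272 CPM in 2 of the quiescent NSC or astrocyte-like clusters, where Atp13a5 was at 22.4 and 43.3 CPM.

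The promoter windows of genes that were high together in mural-like or fibroblast-like cells are shown to compare their base composition, each from 250 bases before to 50 bases after a RefSeq transcript start in GRCm38.p6, 5′ to 3′ on the gene's strand. Capitals mark the only match to a searched motif. The windows are Atp13a5 at chr16:29378683-29378982 (minus strand), Slc6a20a at chr9:123678783-123679082 (minus), the first of 3 Slc6a13 starts at chr6:121300038-121300337 (plus), Abcc9 at chr6:142702225-142702524 (minus) and the fourth of 4 Ggt1 starts at chr10:75573245-75573544 (plus).
Atp13a5: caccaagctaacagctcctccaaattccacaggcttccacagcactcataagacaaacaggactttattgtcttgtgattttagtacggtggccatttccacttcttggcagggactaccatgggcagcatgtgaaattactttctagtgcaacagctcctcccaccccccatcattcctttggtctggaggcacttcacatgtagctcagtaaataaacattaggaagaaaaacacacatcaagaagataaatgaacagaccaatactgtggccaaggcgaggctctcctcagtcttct
Slc6a20a: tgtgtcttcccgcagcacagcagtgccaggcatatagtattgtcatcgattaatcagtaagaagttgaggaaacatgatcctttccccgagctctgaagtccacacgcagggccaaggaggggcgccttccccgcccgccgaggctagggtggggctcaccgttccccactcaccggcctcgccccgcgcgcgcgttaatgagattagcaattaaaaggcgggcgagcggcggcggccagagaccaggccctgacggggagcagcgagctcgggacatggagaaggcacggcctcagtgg
Slc6a13: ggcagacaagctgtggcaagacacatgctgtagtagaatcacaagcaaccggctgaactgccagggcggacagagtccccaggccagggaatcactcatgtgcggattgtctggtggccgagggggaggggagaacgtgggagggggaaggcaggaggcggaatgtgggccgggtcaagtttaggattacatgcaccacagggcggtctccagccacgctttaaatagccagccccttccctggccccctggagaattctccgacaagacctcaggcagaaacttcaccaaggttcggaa
Abcc9: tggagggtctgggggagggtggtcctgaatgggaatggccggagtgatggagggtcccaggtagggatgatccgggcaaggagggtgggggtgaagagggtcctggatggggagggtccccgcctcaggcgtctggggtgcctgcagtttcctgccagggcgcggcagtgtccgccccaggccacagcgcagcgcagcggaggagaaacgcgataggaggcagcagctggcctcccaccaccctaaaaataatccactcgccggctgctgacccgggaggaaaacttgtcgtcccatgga
Ggt1: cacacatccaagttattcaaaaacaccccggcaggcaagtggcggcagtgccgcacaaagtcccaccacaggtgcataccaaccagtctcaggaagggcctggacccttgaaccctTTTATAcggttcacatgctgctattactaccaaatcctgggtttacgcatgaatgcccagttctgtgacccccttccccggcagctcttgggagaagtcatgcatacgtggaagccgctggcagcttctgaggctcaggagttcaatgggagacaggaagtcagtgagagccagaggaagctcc

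The windows were unlike in composition. Slc6a20a with 25 CpG dinucleotides and 62.3% G and C and Abcc9 with 16 and 65.7% were richer in CpG than the median window of 32851 (7 CpG, 52.7%), whereas Atp13a5 had 2 CpG and 45.7%. The windows of genes with several starts differed among themselves, with 11, 7 and 2 CpG for Slc6a13, 2, 10, 7 and 8 for Ggt1 and 2 to 5 in the 5 windows of Slc6a12. Short motifs, 4 in all, were searched on both strands in the 15 windows of the 6 genes, the forkhead motif TGTTTAC, the Zic motif CAGCAGG, the T-box motif AGGTGTGA and the TATA box TATAAA. The only match was a TATAAA on the opposite strand of the fourth Ggt1 window, 134 bases before the start and printed there as TTTATA. Over all windows the shares with a match were 3.65% for TGTTTAC, 10.5% for CAGCAGG, 1.28% for AGGTGTGA and 13.6% for TATAAA.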

How the data were processed

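Nestin-GFP+ cells sorted from mouse brain and from mouse lung were run as 1 10x library each. The authors deposited raw UMI counts per gene and cell, which per the labels were made with bcl2fastq 2.19.1.403, UMI-tools 1.0.0, STAR 2.7.1a on mm10 and featureCounts 1.6.4 of Subread. The annotation used and the rule for calling barcodes are not given in the sources used here. The tables held 4640 brain barcodes (26221173 UMIs) and 5981 lung barcodes (36816962 UMIs), as many as the cells the study plotted, and its stated filter of over 200 and under 4000 genes and under 40% mitochondrial UMIs left 4151 and 5608 (19518081 and 31797069 UMIs).

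Cells were clustered in Seurat 5.3.0 (R 4.3.3; 2000 variable genes without cell cycle, member or list genes, 20 principal components, Louvain resolution 0.8) into 20 brain and 21 lung clusters. A cluster was called X-like from its markers (score of at least 1, lead of at least 0.5 and at least 3 markers in 20% of its cells), and otherwise stayed unnamed. It also stayed unnamed when its 10 leading genes held more markers of another class. The same held when they had no marker of its own and its median UMIs lay below the library median divided by 3. Lung clusters 6 and 9, with 290 and 201 cells, scored highest as pericyte but stayed unnamed. Names were rebuilt and may differ from those of the study. Scrublet (scanpy 1.11.5) called 44 brain (1.06%) and 74 lung (1.32%) doublets, which were kept.

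UMIs were summed per class and given as CPM with exact intervals (scipy 1.17.1, pandas 2.3.3, Python 3.11.15). A gene was tested with at least 10 CPM in either class and 10 UMIs over both, and called at a ratio of at least 4. The ratio step was tested on simulated data. Shares carry exact Clopper-Pearson intervals at the 95% level. All intervals and limits cover counting error only. With 1 library per group there is no replicate error and no test. The members, lists and markers were chosen with earlier results of these data known. Genes named are the 6 members, up to 4 genes by size of each list past 4-fold (all of a list of 5 or fewer), and the 5 genes most like each member with at least 50 UMIs. Some genes that this rule names are not reported here. Gene positions are from GENCODE (GRCm38) and promoters from RefSeq (GRCm38.p6), in which all 6 genes were found. Alternatives covered cell filters, doublets, resolution, scaling, fold, low counts, thinning and the reference class.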

Additional observations from a re-analysis of the deposited data

Results flagged for a closer look

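Abcc9 had opposite orders between the pooled classes of the 2 organs. Its CPM in brain mural-like cells was 234 times that in brain fibroblast-like cells, whereas in lung the pericyte-like value was 0.736 times that in matrix fibroblast-like cells. The difference between the 2 ratios was not tested, and the brain ratio rests on 2 UMIs in fibroblast-like cells. The lung order depended on which pericytes were counted, since pericyte-like cluster 12 was at 742 CPM, above the 97.4 CPM of matrix fibroblast-like cells as in brain, and clusters 0 and 4 were at 31.7 and 44.1 CPM.

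Abcc9 UMIs also lay in unnamed lung clusters that entered no comparison, 20 in cluster 6, 19 in cluster 9, 8 in cluster 10 and 217 in cluster 15. Cluster 15 held 99 cells at 263 CPM of Abcc9 and 286 CPM of Kcnj8.

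The 489 brain barcodes outside the cell filter held 19 UMIs of Atp13a5, 32 of Slc6a20a, 23 of Slc6a13, 6 of Ggt1 and 18 of Abcc9. The 373 lung barcodes outside the filter held 161 UMIs of Abcc9.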

How the results depend on the processing

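Of 176 ratios of the 6 genes recomputed under 8 alternatives of cell filter, doublets, resolution, scaling and endothelial-marker removal, 170 stayed within 1.5 times, 6 moved and 0 reversed. The moved ratios were those of Abcc9 in fibroblast-like cells, 0.134 without an upper limit of genes and 0.0317 without endothelial-marker cells, of Slc6a13 against other brain classes with a mitochondrial limit of 10% (354 and 3890) and of Slc6a12 with cells weighted equally (178 and 435). Against lung, 5 to 6 of the 6 genes were higher in mural-like cells, 5 with lung cluster 12 as the only reference, and 3 to 5 in fibroblast-like cells, 5 at resolution 1.2 and 3 with sub-cluster 1 alone. The cluster and sub-cluster alternatives were chosen after seeing the data. Against other brain classes, 6 were higher in mural-like cells throughout and 5 to 6 in fibroblast-like cells. Over all genes, a fold of 2 called 1854 in mural-like and 1970 in fibroblast-like cells against lung, and a fold of 8 called 445 and 450.

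Shares of cells depended on depth. Thinned to 2000 UMIs and unthinned they were 95.4% and 96.4% for Atp13a5, 87.8% and 92.3% for Slc6a20a, 48.1% and 55.0% for Ggt1 and 84.0% and 88.2% for Abcc9 in mural-like cells, and 85.7% and 86.4% for Slc6a13 in fibroblast-like cells. For Slc6a12 in fibroblast-like cells they were 14.3% and 30.3%. Spearman's rho was 0.804 for Atp13a5 with Ggt1, 0.757 for Slc6a20a with Foxd1 and 0.448 for Slc6a13 with Slc6a12, and over the genes named as most like a member it ran from 0.110 (Nodal with Ggt1) to 0.872 (Foxs1 with Abcc9), with 0.131 for Col8a1 and 0.132 for Prg4 with Slc6a13. The ranks by likeness therefore depend on the measure. No paired analysis was possible because each group held 1 library.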
